A study of Mus musculus with 6 samples.

Results

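The genes described here are 149 microRNA loci that gave a moderate or bright signal on whole-transcript arrays of mouse prostate tumor cells. They were taken from 603 microRNA loci whose transcript cluster, the array's unit for 1 transcript, carried exactly 1 gene symbol. For each locus the brightest cluster was used, and a mean of at least 6 on the log2 scale over the 6 arrays was required. The other 454 loci lay below that level, and 30063 genes of all kinds were tested in the whole study. The loci were chosen by their level over all arrays, so that level is given only as a description. The difference between treatments was not used by the rule.

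The cells came from allografts of MCRedAL, a mouse prostate cancer line that carries the red fluorescent protein mCherry. In the first group, male mice bearing such tumors were given degarelix under the skin once tumors had reached about 500 mm2, the unit written in the labels, and 3 tumors were analysed. The second group consisted of 3 tumors from untreated mice. Degarelix blocks the receptor for gonadotropin-releasing hormone and thereby withdraws androgen, and the comparison asked what that withdrawal did to the tumor cells. Cells of both groups were sorted as mCherry positive and as negative for CD45, F4/80 and CD11b, which mark leukocytes, macrophages and myeloid cells. RNA integrity numbers were 9 or higher in both groups. Titles of the degarelix samples include 7dPC without a meaning in the labels, and no time of sampling is given here. MCRedAL is a single line, so the arrays sample tumors of 1 model.

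MicroRNAs are short RNAs that are cut from hairpins in longer primary transcripts, first by Drosha in the nucleus and then by Dicer in the cytoplasm. An Argonaute protein carries the mature microRNA to messenger RNAs, which it recognises mainly through the seed near the 5′ end, and these messages are then repressed or degraded. Many microRNA hairpins lie in introns of host genes and are transcribed with them. Several microRNAs are known in human prostate cancer as targets or regulators of androgen signalling. The arrays label RNA along whole transcripts, so a signal from such a locus may come from the primary transcript, the hairpin, a host transcript or another RNA that matches the probes. The values are therefore levels of the locus and not of the mature microRNA.

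Mature sequences were available for 122 of the 149 loci from RefSeq (GRCm38.p6). They are printed 5′ to 3′ with the seed, bases 2 to 8, in capitals. The first set belongs to loci that differed between the groups. Mir31 lies on chromosome 4 within the long noncoding RNA gene Gm49890, with miR-31-5p at chr4:88910614-88910635 on the minus strand. Mir3097 lies on chromosome 5 within the gene Rgs12, with miR-3097-5p at chr5:35021050-35021072 on the plus strand. Mir674 lies on chromosome 2, with miR-674-5p at chr2:117185151-117185172 on the plus strand. Mir6240 lies on chromosome 5 at chr5:114851973-114851998 on the plus strand. For the last pair, no same-strand host gene was listed. The miR-1947-3p sequence is shown because it has the same seed, CACUGAG, as miR-674-5p.
mmu-miR-31-5p: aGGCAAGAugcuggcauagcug
mmu-miR-31-3p: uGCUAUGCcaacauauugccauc
mmu-miR-3097-5p: cACAGGUGggaagugugugucca
mmu-miR-3097-3p: cUCAGACCuuucuaccugucag
mmu-miR-674-5p: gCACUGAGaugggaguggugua
mmu-miR-1947-3p: gCACUGAGcuagcucucccucc
mmu-miR-6240: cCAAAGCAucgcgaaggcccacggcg

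The second set belongs to bright loci, and it is shown because several of them resemble repeated sequence. The sequences of miR-3473f and miR-3473a share the stretch UGGAGAGAUG. As background, miR-3473a matches the mouse B2 repeat, and miR-3470b and miR-1195 match the mouse B1 repeat. Both are short interspersed elements present in very many copies, also inside messenger RNAs.
mmu-miR-3473f: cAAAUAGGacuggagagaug
mmu-miR-3473a: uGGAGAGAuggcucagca
mmu-miR-3470b: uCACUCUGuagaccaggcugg
mmu-miR-1195: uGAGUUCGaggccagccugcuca
mmu-miR-3471: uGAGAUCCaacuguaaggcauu

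The third set shows the 3p arms of the mir-23a, mir-27a and mir-24-2 cluster, which is transcribed as 1 primary transcript on chromosome 8. The seeds of the first and second share the letters UCACA, and the third is unrelated.
mmu-miR-23a-3p: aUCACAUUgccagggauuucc
mmu-miR-27a-3p: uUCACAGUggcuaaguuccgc
mmu-miR-24-3p: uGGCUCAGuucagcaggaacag

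After degarelix, 5 of the 149 microRNA loci rose and 2 fell, and all 7 changes were smaller than 2-fold. Differences were tested with limma across all 30063 genes, and a change was called at a Benjamini-Hochberg adjusted p below 0.05. In that test 11.7% of all genes were called, 4.2% as higher and 7.53% as lower, while 4.70% of the microRNA loci were called. Among the 13277 genes of all kinds with a mean of at least 6, 21.5% were called. These shares describe the arrays, and no test of the difference between them was made. An unadjusted p below 0.05 was found for 33 of the 149 loci, or 22.1%, against 26.2% of all genes and 42.3% of genes with a mean of at least 6. By their titles the samples are biological replicates, and the p-values measure only the spread between these samples.

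Mir31 had the largest called rise. Its level was 6.46, 6.55 and 6.72 in degarelix replicates 1 to 3, against 5.72, 6.09 and 6.13 in untreated replicates 1 to 3. All degarelix arrays lay above all untreated arrays, with means of 6.58 ± 0.13 and 5.98 ± 0.23 (SD, n = 3 each). The change was 0.60 on the log2 scale with an SE of 0.12, a 1.51-fold rise (limma, adjusted p = 0.0159). Mir31 is known in human prostate cancer cells as a microRNA that targets the androgen receptor message. The untreated mean was below 6, so Mir31 reached the level minimum through the degarelix arrays. The same held for 8 loci in all, whose direction is partly set by that, and 1 locus, Mir7659, reached it through the untreated arrays. Gm49890, the host transcript of Mir31, had no value among the genes tested.

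Mir3097 also rose, together with its host gene. The locus had levels of 7.98, 7.72 and 7.65 in degarelix arrays and 7.39, 7.27 and 7.14 in untreated arrays. Again no untreated array reached the lowest degarelix array, and the change was 0.51 with an SE of 0.11 (limma, adjusted p = 0.0169). Rgs12, which encodes a regulator of G protein signalling, had levels of 6.55, 6.52 and 6.55 in degarelix arrays and 6.20, 6.26 and 6.23 in untreated arrays. Its change was 0.31 with an SE of 0.06 (limma, adjusted p = 0.0167), and it lost its call in 5 of 14 alternatives, with adjusted p up to 0.0682. Whether the probes of the locus read the host transcript was not tested.

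The other 3 rises were smaller or less even. Mir466d, a member of a large rodent microRNA family on chromosome 2, had levels of 8.15, 7.94 and 7.49 in degarelix arrays and 7.42, 7.30 and 7.08 in untreated arrays. The lowest degarelix array stood only just above the highest untreated array, and the change was 0.59 with an SE of 0.16 (limma, adjusted p = 0.0468). A second Mir466d cluster changed by 0.12 and was not called (limma, adjusted p = 0.394 when every cluster was tested), so the rise held for 1 of its 2 clusters. Mir6920 had levels of 6.91, 7.08 and 7.27 in degarelix arrays and 6.38, 6.63 and 6.79 in untreated arrays, a change of 0.49 (SE 0.12; limma, adjusted p = 0.0377). Mir674 had levels of 6.65, 6.54 and 6.40 in degarelix arrays and 6.26, 6.21 and 6.01 in untreated arrays, a change of 0.37 (SE 0.10; limma, adjusted p = 0.0419). The groups did not overlap for either locus. Mir1947, which shares its seed with miR-674-5p, had a change of 0.27 that was not called (limma, adjusted p = 0.125), and it was chosen after its values were seen.

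Both loci that fell were among the bright ones. Mir684-2 had levels of 10.90, 11.46 and 11.31 in degarelix arrays and 11.71, 11.67 and 11.74 in untreated arrays. The change was -0.48 with an SE of 0.13 (limma, adjusted p = 0.0468), and degarelix replicate 1 was the lowest array. Mir6240 had levels of 11.14, 11.20 and 11.37 in degarelix arrays and 11.89, 11.56 and 11.53 in untreated arrays. Here untreated replicate 1 was the highest array, and the change was -0.43 with an SE of 0.11 (limma, adjusted p = 0.0426). The brightest Mir6240 cluster has no chromosome in its identifier, and its other cluster, on chromosome 5, changed by -0.44 (limma, adjusted p = 0.0337 when every cluster was tested). Mir684-1, a second locus with the name of Mir684, changed by -0.47 and just missed the threshold (limma, adjusted p = 0.0516). Its 5 other clusters, which carry identical values, changed by -0.46 and passed it (limma, adjusted p = 0.0362 when every cluster was tested). Mir684-1 was chosen after its values were seen. Neither fall was called with cyclic loess or quantile normalization (limma, adjusted p = 0.133 and 0.104 for Mir684-2, and 0.273 and 0.215 for Mir6240).

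**Figure D1:**
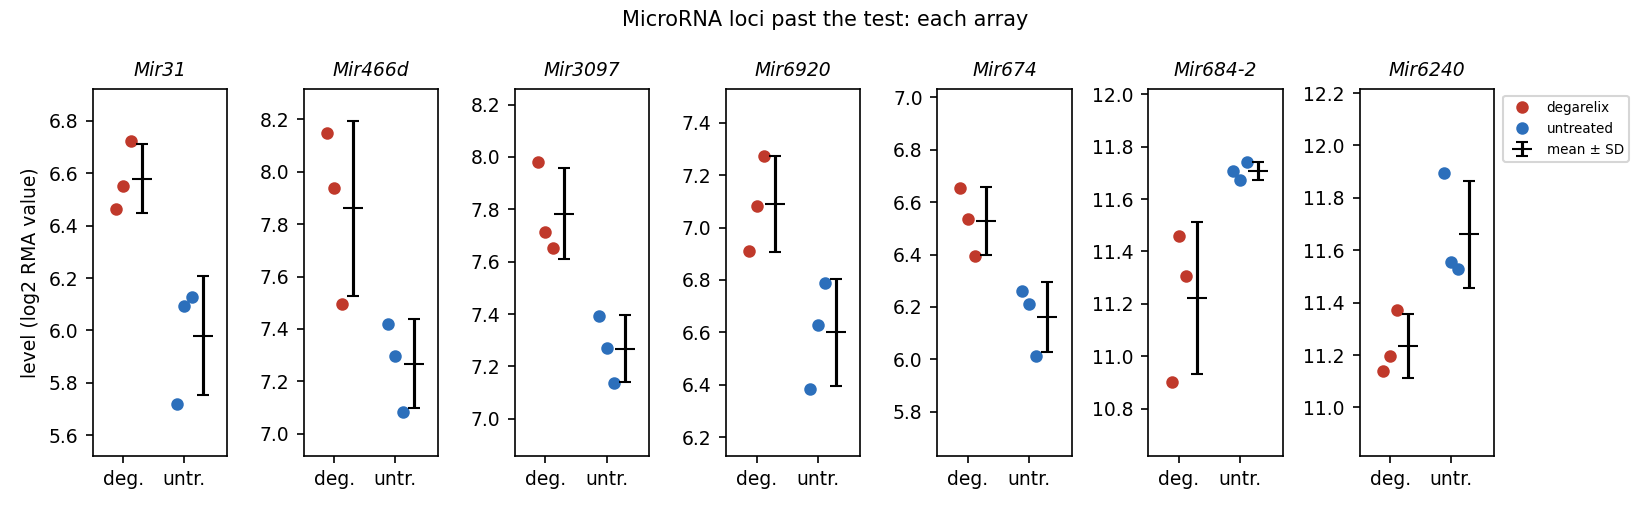
Level of the 7 called microRNA loci in every array, on the log2 RMA scale, with degarelix arrays left (red) and untreated arrays right (blue). Points are single arrays in replicate order, and bars give mean ± SD of 3 arrays. Each panel spans the same height on the log2 scale, and in each panel the groups do not overlap.

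These calls moved with single arrays. Without degarelix replicate 3, 30 loci were called higher, against 2 without degarelix replicate 1, degarelix replicate 2 or untreated replicate 2, and 3 without untreated replicate 3. No locus was called lower without degarelix replicate 1 or without any 1 of the untreated replicates, against 2 with all arrays. Mir31 kept its call whichever single array was left out. Mir3097 lost it without degarelix replicate 1 (adjusted p = 0.0545) and without untreated replicate 3 (adjusted p = 0.0605), and Mir6240 missed it without untreated replicate 1 (limma, adjusted p = 0.0522). The loci shift together between arrays of 1 group: their median level was 7.20, 7.11 and 6.84 in degarelix replicates 1 to 3, against 7.04, 6.86 and 6.86 in untreated replicates 1 to 3. Degarelix replicate 3 thus had a lower median than every untreated array.

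Across all 149 loci, 117 had a change above 0 (103 when each array was centred on its median) and 32 below, with a median of 0.13 and a range of -0.48 to 0.63. Over all genes the median change was 0.04, and over genes with a mean of at least 6 it was -0.05. The groups did not overlap for 13 loci that were higher after degarelix and for 11 that were lower. Over all genes, groups without overlap made up 14.8% (higher) and 16.4% (lower). The highest value, 0.63 at Mir3098, was not called (SE 0.24), and degarelix replicate 3 at 6.24 lay below untreated replicates 1 and 3 at 6.32 and 6.35. That value came from a cluster on chromosome 2, while Mir3098 lies on chromosome 6. Its cluster on chromosome 6 changed by 0.24 at a level of 5.99. The array's background probe sets, which match no mouse transcript, changed by -0.08 to 0.08 between the groups.

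The median change varied with brightness. The 77 loci with levels of 6 to 7 had a median change of 0.14 and the 51 loci with levels of 7 to 9 had 0.15. The 21 loci with levels of 9 or more had a median change of -0.13, which was -0.03 with quantile normalization and turned to 0.01 with cyclic loess, and the groups did not overlap for 8 of them that were lower. That is 38.1%, against 38.5% of all genes at this level. Over genes of all kinds the medians in the same ranges were 0.04, -0.07 and -0.12. The correlation of change with level over the 149 loci was -0.44 by Pearson and -0.18 by Spearman. These points share the same 6 arrays, so the values describe them only.

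**Figure D2:**
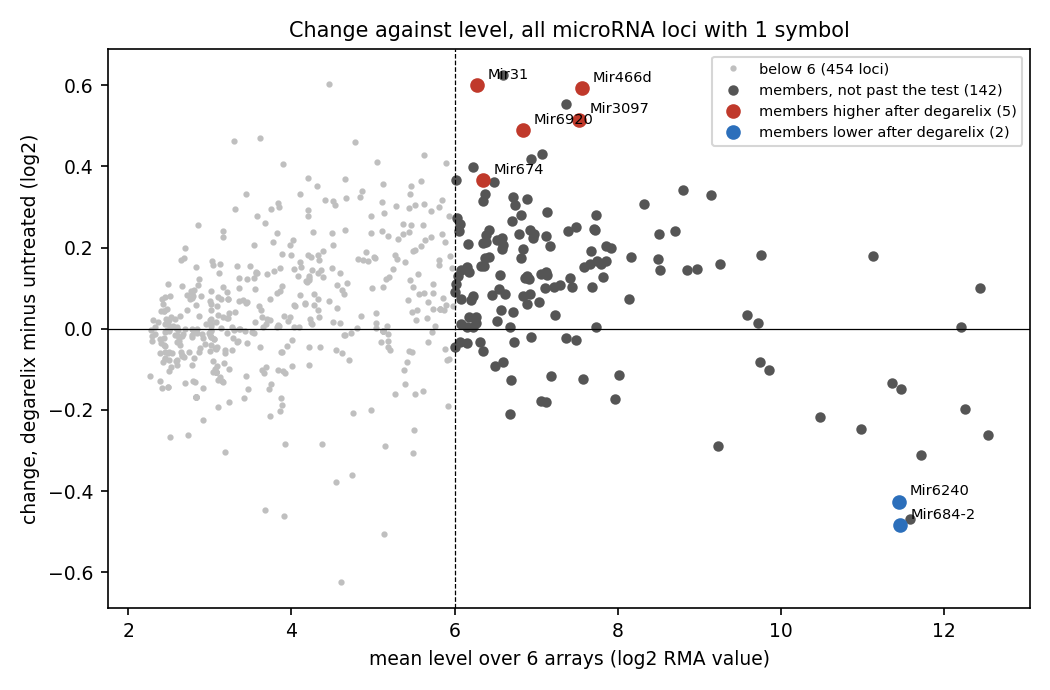
Change of each microRNA locus, degarelix minus untreated on the log2 scale, against its mean level over 6 arrays on the log2 RMA scale. Light points are the 454 loci below 6, dark points are loci of at least 6 that were not called, and red and blue points are the 5 called higher and 2 called lower. The 2 blue points lie at levels above 11, and the 5 red points lie below 8.

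The brightest microRNA loci were Mir3473f, Mir3470b, Mir703, Mir3473a and Mir1191, with mean levels of 12.54, 12.44, 12.26, 12.21 and 11.72. None of them was called. Mir3473f had levels of 12.30, 12.45 and 12.46 in degarelix arrays and 12.70, 12.69 and 12.61 in untreated arrays, with no overlap and a change of -0.26 (limma, adjusted p = 0.0538). Mir1191 had levels of 11.62, 11.50 and 11.57 in degarelix arrays and 12.05, 11.79 and 11.78 in untreated arrays, with no overlap and a change of -0.31 (limma, adjusted p = 0.0565). Mir703 changed by -0.20 (adjusted p = 0.158), Mir3470b by 0.10 (adjusted p = 0.578) and Mir3473a by 0.00 (limma, adjusted p = 0.982). Levels of different loci rest on different probes and are listed side by side without a ratio.

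Some of these levels came from clusters that lie elsewhere than the microRNA. For 15 of 148 loci the chromosome in the cluster's identifier differed from the chromosome that RefSeq gives, which is 10.1%. Among loci with levels of 9 or more this was 8 of 20, or 40%, against 5 of 450 loci below 6, or 1.11%, and 45 of 29357 other genes, or 0.153%. Of 17 microRNA symbols with clusters both on and off their RefSeq chromosome, 12 were brighter off it, and 7 had a level below 6 on it. Mir669e had a level of 4.59 on its own chromosome 2 and 11.13 on chromosome 8. Mir3473f had 7.09 on its own chromosome 1 and 12.54 on chromosome 18. Mir378c had 3.15 on its own chromosome 14 and 6.68 on chromosome 3. For such loci the level above 6 is that of a cluster that shares the name.

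Copies of the mature sequences in promoters were counted as another property that the choice of loci did not use. A copy was a stretch of 16 bases of the mature sequence on either strand of 32851 RefSeq promoter windows of 300 bases that did not overlap the hairpin. Among loci with levels of 9 or more and a sequence, 10 of 15 had a copy, against 10 of 38 at levels of 7 to 9, 15 of 69 at 6 to 7 and 49 of 369 below 6. Among loci of at least 6, at least 10 promoters held a copy of Mir3473a (54), Mir3470b (29), Mir574 (26), Mir5126 (20), Mir3471-1 (13) and Mir1195 (11). Of the 369 loci below 6, 4 had copies in at least 10 promoters, with a maximum of 67. Mir3473f, the brightest locus, had no such copy, though 93 promoters held 20 bases of its hairpin. A match describes the sequence only and shows no site or cause. None of the 6 loci listed from Mir3473a to Mir1195 was called, and their changes ranged from -0.25 at Mir1195 to 0.17 at Mir574.

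Level also went with base composition. Over 459 microRNA loci with a hairpin sequence, the GC share of the hairpin correlated with the level at 0.57 (Pearson) and 0.68 (Spearman). Within the 106 such loci of at least 6 the values were -0.23 and 0.00. Those loci were chosen by level, which by itself changes such a correlation, so the 2 pairs of values cannot be compared. The background probe sets climbed in the same way up to 22 GC bases of 25, with degarelix and untreated means of 2.17 and 2.22 at 3 GC bases of 25, and of 6.73 and 6.71 at 22 of 25. They fell back to 5.88 and 5.81 at 25 of 25. In all, 76 of the 149 loci had a mean above 6.93, the brightest single background value. Over the background sets with at least 20 GC bases the medians were 6.34, 6.20 and 6.18 in degarelix arrays and 6.48, 6.17 and 6.14 in untreated arrays, so untreated replicate 1 was the highest. The part of base composition in the levels was not tested further.

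**Figure D3:**
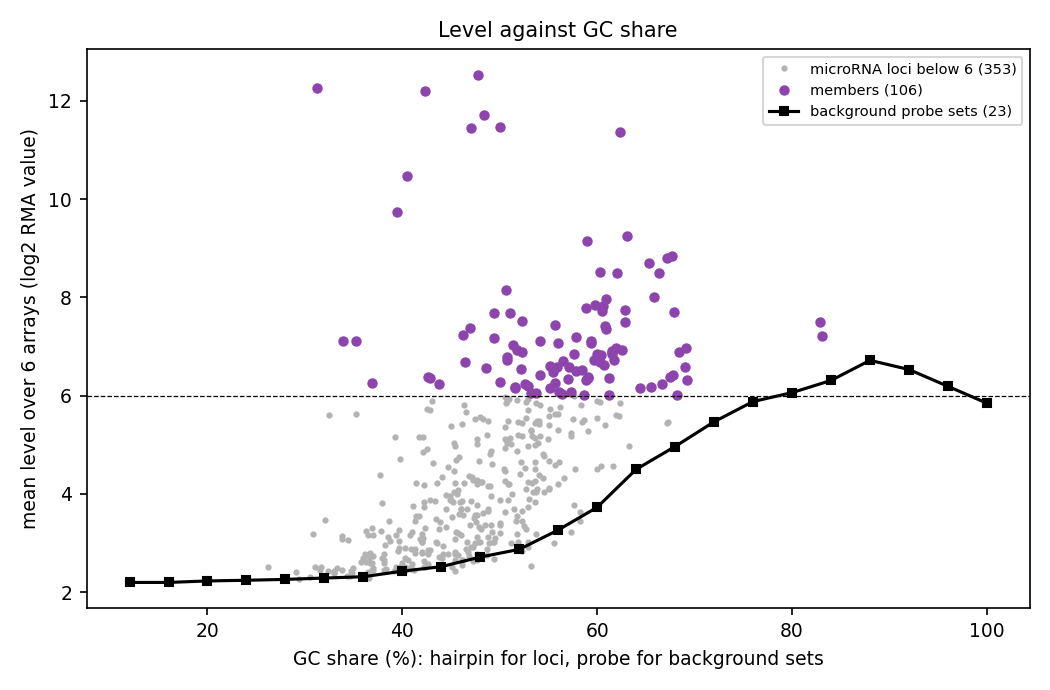
Mean level over 6 arrays, on the log2 RMA scale, against the GC share in percent. Grey points are microRNA loci below 6, purple points are loci of at least 6, and black squares are the 23 background probe sets at the GC share of their probes. Levels of dim loci climb with GC, as do those of background sets up to a share of 88%. Loci above 9 lie above the background line by that level alone, as no single background value exceeded 6.93.

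Near the level minimum, Mir149, Mir669f and Mir7659 had means of 6.02, 6.01 and 6.003, and Mir3074-1, Mir1929 and Mir551b, just outside, had means of 5.99, 5.97 and 5.94. Of the 454 loci below 6, 7 were called higher and 3 lower, or 1.54% and 0.66%, against 4.2% and 7.53% of all genes.

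The Mir466, Mir467 and Mir669 genes form a large family whose copies lie mostly within an intron of Sfmbt2 on chromosome 2, and 18 of the 73 measured reached a level of 6. All 18 had a change above 0 (15 with median centring and 17 with cyclic loess), with a median of 0.15, but Mir466d was the only one called. The groups did not overlap for 5 of them, or 27.8% against 14.8% of all genes, namely Mir669e, Mir466f-1, Mir466d, Mir466h and Mir669d. Mir669e had levels of 11.22, 11.16 and 11.28 in degarelix arrays and 11.07, 11.04 and 11.01 in untreated arrays, a change of 0.18 that was not called (limma, adjusted p = 0.135). The direction holds for the brightest cluster of each: on their own chromosome 2, clusters of Mir669h and Mir669m-2 changed by -0.24 and -0.05. A second Mir466f-1 cluster changed by 0.36 and passed the threshold (limma, adjusted p = 0.0234 when every cluster was tested). These loci have near-identical copies and may share signal, so each is uncertain as a single gene.

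The imprinted Dlk1 to Dio3 region of chromosome 12 carries a large microRNA cluster, and 10 of its loci reached a level of 6. Their levels lay between 6.06 and 7.41. Of the 10, 9 had a change above 0 (8 with median centring or cyclic loess), and changes ranged from -0.18 at Mir494 to 0.40 at Mir337. None was called. Mir494 had levels of 7.05, 7.12 and 6.93 in degarelix arrays and 7.38, 7.01 and 7.25 in untreated arrays, so its groups overlapped.

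Among the 122 loci with a mature sequence, few shared a seed. The others, such as Mir466d and Mir684-2, could not be compared. Mir680-1, Mir680-2 and Mir680-3 share the seed GGCAUCU and the same mature sequence, and changed by -0.09, -0.17 and 0.20. The Mir680-2 value came from a cluster on chromosome 9, and the cluster on its own chromosome X changed by 0.03. A second Mir680-3 cluster, on chromosome 10, changed by -0.02. The signs of Mir680-2 and Mir680-3 thus depended on the cluster. Mir181c and Mir181d share ACAUUCA and changed by 0.22 and 0.06. Mir194-1 and Mir194-2 share GUAACAG and changed by 0.23 and 0.28. Mir149 and Mir1943 share AGGGAGG and changed by 0.11 and 0.34. None of these was called, and in each set the loci lie in separate places or are separate hairpins.

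Of microRNAs with known roles that had a value, few reached a level of 6. Many others had no value, so their levels are not known here. The rule left out clusters that carry a symbol together with its mmu-mir name. Of 283 such loci, 122 had a mean of at least 6. The cluster of Mir23a, Mir27a and Mir24-2 did so with all 3 loci. Mir23a had levels of 7.07, 7.26 and 7.52 in degarelix arrays and 6.62, 6.87 and 7.07 in untreated arrays, with a change of 0.43 (SE 0.14; limma, adjusted p = 0.0884). The groups touched at 7.07, so they were not separate. Mir27a, which androgen is known to raise in human prostate cancer cells, had levels of 7.80, 7.90 and 8.11 in degarelix arrays and 7.89, 7.67 and 7.75 in untreated arrays. The groups overlapped, and the change of 0.17 was not called (limma, adjusted p = 0.318). Mir24-2 changed by 0.04 (limma, adjusted p = 0.858). The changes within the cluster thus ranged from 0.04 to 0.43, and the difference between the 3 loci was not tested.

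Mir210, known for its rise in hypoxia, had levels of 7.34, 7.07 and 6.81 in degarelix arrays and 6.98, 6.81 and 6.76 in untreated arrays, with a change of 0.22 (limma, adjusted p = 0.312). Its groups overlapped. Mir30c-1, inside Nfyc, changed by 0.10 (adjusted p = 0.392), Mir26b, inside Ctdsp1, by -0.03 (adjusted p = 0.804) and Mir150, a lymphocyte microRNA, by -0.03 (limma, adjusted p = 0.819). No locus of the let-7 family (12 measured), the p53-induced mir-34 family (3), the epithelial mir-200 family with mir-205 (4) or the Myc-induced clusters (6) reached a level of 6, and none of these 25 was called. For the Myc-induced clusters 15 loci were listed, and Mir17 and Mir92-1 were among those without a value. Mir205 had none either. Of 3 fibroblast and smooth muscle microRNAs measured, none reached a level of 6, and Mir199b rose by 0.46 at a mean level of 3.29 (limma, adjusted p = 0.0488). Myc itself, the transcription factor known to induce those clusters, had levels of 9.12, 9.22 and 9.29 in degarelix arrays and 8.24, 8.57 and 8.80 in untreated arrays. Its groups did not overlap, and it rose by 0.68 (SE 0.13; limma, adjusted p = 0.0135).

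For 47 of the 149 loci RefSeq places the hairpin within a gene on the same strand, and 36 of these host genes were measured. Among the hosts 6 rose and 2 fell, or 22.2%, against 11.7% of all genes and 21.5% of genes with a mean of at least 6. Hosts were not chosen by level, and some lay below 6, such as Igf2 at 5.31. Of all genes 4.2% were called higher and 7.53% lower. Of genes with a mean of at least 6 these shares were 7.31% and 14.1%. Of the 8 microRNA loci in called hosts only Mir3097 was called. Zfp185, which encodes a LIM domain protein bound to actin, had levels of 7.36, 7.33 and 7.85 in degarelix arrays and 9.69, 9.97 and 9.80 in untreated arrays. It fell by 2.31 on the log2 scale (limma, adjusted p = 7.7e-05). Mir2137, which lies in it, had levels of 7.92, 7.88 and 7.86 in degarelix arrays and 7.94, 7.75 and 7.59 in untreated arrays, a change of 0.13 (limma, adjusted p = 0.416). The fall of the host was thus not seen at the locus. Agpat3, an acyltransferase of phospholipid synthesis, fell by 0.43 (adjusted p = 0.00401), and its locus Mir7659 changed by -0.05 (limma, adjusted p = 0.804).

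The other 5 hosts that rose were Fam114a1, Srf, Dmpk, Slc43a2 and B4galt1. Srf, a transcription factor of growth-induced and actin genes, rose by 0.52 (adjusted p = 0.0498), and its locus Mir6976 changed by 0.22 (limma, adjusted p = 0.296). Dmpk, the myotonic dystrophy protein kinase, rose by 0.52 (adjusted p = 0.00203), and Mir3100 changed by 0.13 (limma, adjusted p = 0.386). Slc43a2, a transporter of large neutral amino acids, rose by 0.50 (adjusted p = 0.0026), and Mir3971 changed by 0.14 (limma, adjusted p = 0.484). Fam114a1 rose by 0.58 (adjusted p = 0.00366) with Mir574 at 0.17 (limma, adjusted p = 0.392). B4galt1, a galactosyltransferase, rose by 0.28 (adjusted p = 0.0451), and Mir5123 changed by 0.55 with a wide SE of 0.19 (limma, adjusted p = 0.0984). B4galt1 lost its call in 9 of 14 alternatives (adjusted p up to 0.165) and Srf in 6 (limma, adjusted p up to 0.151). These pairs, like Zfp185 and Mir2137, were chosen after their values were seen. Host and locus had changes of the same sign in 24 of 36 pairs, and their changes correlated at 0.15 (Pearson) and 0.25 (Spearman) over the 36 pairs, which share the same arrays. The count of hosts called higher was 3 without degarelix replicate 1, degarelix replicate 2 or untreated replicate 3.

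**Figure D4:**
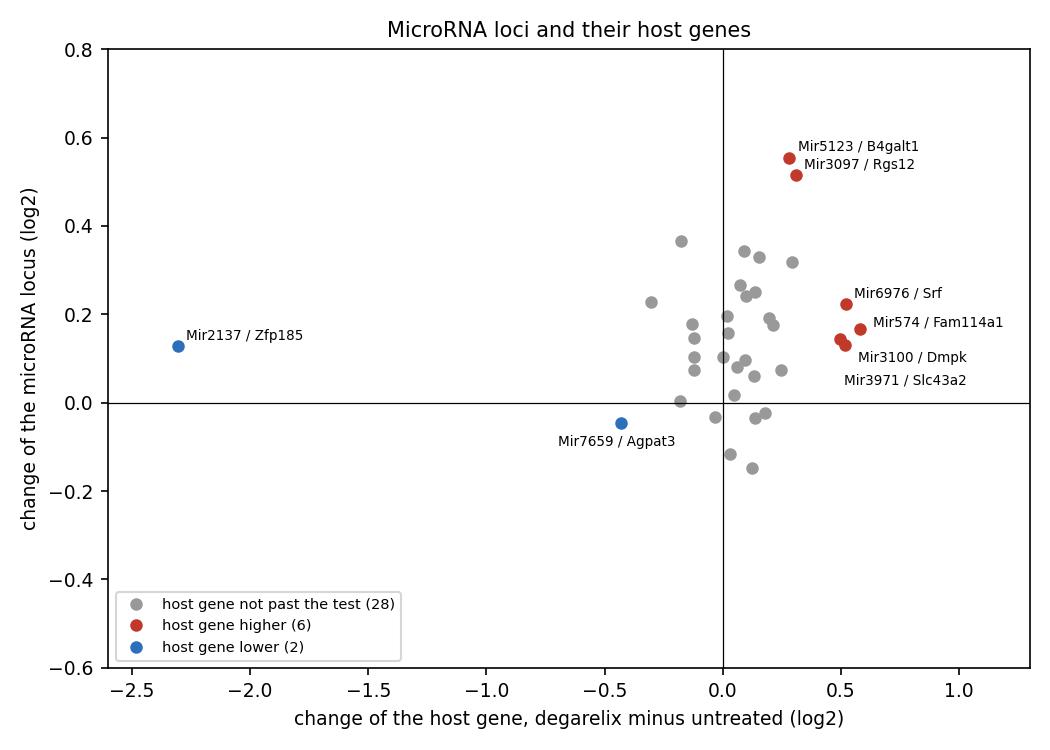
Change of each microRNA locus against the change of its host gene, both degarelix minus untreated on the log2 scale, for 36 pairs. Red points are loci whose host rose, blue points are loci whose host fell, and grey points are the others. The point for Mir2137 and Zfp185 lies far left, at a host change of -2.31 and a locus change of 0.13.

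Of 40 genes listed for making and using microRNAs, 34 were measured, 4 fell and none rose. The 4 make 11.8% of the list, against 7.53% of all genes and 14.1% of genes with a mean of at least 6 that were called lower. The median change was -0.28 for genes that process primary transcripts in the nucleus (1 of 9 called), -0.27 for export and Dicer cleavage (0 of 6), -0.19 for the silencing complex (1 of 8) and -0.09 for tailing and decay (2 of 11). With other scalings the medians of these lists stayed below 0. The median change was 0.04 over all genes and -0.07 over genes with levels of 7 to 9. Ncbp1, a subunit of the nuclear cap-binding complex, had levels of 8.77, 8.80 and 8.82 in degarelix arrays and 9.58, 9.73 and 9.84 in untreated arrays. It fell by 0.92 (SE 0.08; limma, adjusted p = 0.000326). Cap binding serves all polymerase II transcripts as well as primary microRNAs.

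Tnrc6a, the scaffold that links Argonaute to repression, had levels of 7.67, 7.74 and 7.92 in degarelix arrays and 8.38, 8.20 and 8.23 in untreated arrays, and fell by 0.49 (limma, adjusted p = 0.00941). Xrn2, a nuclear 5′ to 3′ exonuclease, fell by 0.33 (adjusted p = 0.0231), and Snd1, a nuclease associated with the silencing complex, fell by 0.32 (limma, adjusted p = 0.0212). Xrn2 lost its call in 4 of 14 alternatives (adjusted p up to 0.0883) and Snd1 in 5 (limma, adjusted p up to 0.0972), while Ncbp1 and Tnrc6a kept theirs in all 14. For each of these genes all degarelix arrays lay below all untreated arrays. Drosha had levels of 8.29, 8.41 and 8.35 in degarelix arrays and 8.44, 8.68 and 8.78 in untreated arrays, with a change of -0.28 (limma, adjusted p = 0.0945). Dicer1 changed by -0.28 (adjusted p = 0.0598), Xpo5, the exporter of hairpins, by -0.29 (adjusted p = 0.0594) and Ago2, the Argonaute that can cut targets, by -0.23 (limma, adjusted p = 0.0682). The groups did not overlap for any of these 4 genes either, but none was called. Groups without overlap, lower after degarelix, made up 16.4% of all genes and 29% of genes with a mean of at least 6. The genes named here were picked for the smallest adjusted p in their lists, which favours groups without overlap.

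The count of called genes moved with single arrays. Without untreated replicate 1, 14 of the 34 genes were called lower, against 2 without degarelix replicate 1, degarelix replicate 2, untreated replicate 2 or untreated replicate 3.

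Markers of other cells were read beside these results. Of 6 fibroblast markers Dcn and Fbln1 rose, by 1.46 and 1.07, and the summed level of the 6 was 48.5 to 53.2 in degarelix arrays against 45.0 to 47.7 in untreated arrays. None of 6 macrophage and monocyte markers was called, and their summed level was 35.6 to 36.1 in degarelix arrays against 35.8 to 43.8 in untreated arrays, where untreated replicate 1 was the highest. Of 4 neutrophil markers Ly6g rose by 0.38 at a mean level of 4.77 (limma, adjusted p = 0.0473). S100a8, S100a9 and Mpo changed by 0.04, -0.21 and 0.14 and were not called. None of 5 endothelial markers was called, though Kdr and Emcn were lower without overlap, with changes of -0.32 and -0.19. Pecam1 and Cdh5 changed by -0.26 and -0.38, and Tek by 0.08. Ptprc, which encodes CD45, had levels of 3.72 to 3.77 in degarelix arrays and 3.68 to 4.47 in untreated arrays. None of the 5 tumor epithelium markers measured was called. Krt8 was bright, at 11.92 in degarelix and 11.55 in untreated arrays on average, and Epcam was dim, at 3.90 and 3.85. Cdh1 and Krt18 changed by 0.13 and 0.17, and Hoxb13 was lower without overlap, with a change of -0.19. None of 5 smooth muscle markers was called, and their directions were mixed. Cnn1 was higher without overlap, with a change of 0.18, and Myh11 changed by 0.09. Acta2, Tagln and Des changed by -0.37, -0.09 and -0.09. Over all genes, groups without overlap made up 14.8% (higher) and 16.4% (lower). The part of these cell types in the microRNA results was not tested. In sorted bulk RNA, fewer cells of a type and less RNA per cell cannot be told apart.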

How the data were processed

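RNA from sorted tumor cells was hybridised to Affymetrix MTA 1.0 arrays, 1 per tumor. The deposited value table holds log2 values, made per the submitters' processing notes with Affymetrix Expression Console and RMA, with no settings stated. Such values are background-corrected, normalized between arrays and summarised over probes, which compresses changes of dim loci and removes shifts shared by an array. The arrays' number limits the precision. Of 72688 rows, 6732 control rows were left out of tests, leaving 65956 transcript clusters. Symbols came from the platform annotation, updated through Entrez identifiers and synonyms of a RefSeq table (GRCm38.p6). A cluster's chromosome was read from its identifier. Left out were 537 clusters that name a microRNA beside other symbols, of which 283 only add its mmu-mir name. Of the 149 loci, 29 had several clusters.

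The test was limma's (lmFit, eBayes; limma 3.58.1 under R 4.3.3), two-sided, over the brightest cluster of 30063 genes, with Benjamini-Hochberg adjustment. Changes are degarelix minus untreated. Data were also simulated for 30063 genes as independent normal noise with each gene's own variance. In them limma called 92 of 100 genes changed by a log2 of 1, 54 of 100 changed by 0.5 and 7 of 29863 unchanged. Shifts shared by genes of 1 array were not simulated, and fewer genes were changed than the 3529 called in the real data. These counts are therefore not error rates of the real calls. Genes were named by rule: called loci, the 5 brightest, 3 on either side of the minimum, up to 4 per role group, their hosts, the 4 of smallest adjusted p per pathway list, and genes fixed by name. The loci and lists were chosen with earlier results of these data known. Tables and figures used Python 3.11.15, pandas 2.3.3 and matplotlib 3.10.9. Alternatives were other scalings, variance models, filters, cluster choices, level minimums, a replicate block and leaving out each array.

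The labels do not say whether the replicate numbers pair the arrays, and the main test treated the arrays as unpaired. Deviations of same-numbered arrays correlated at 0.16, 0.04 and 0.20, and those of differently numbered arrays at -0.17 to 0.03. These few values cannot settle whether the arrays are paired.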

Additional observations from a re-analysis of the deposited data

How the results depend on the processing

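Of the 7 called loci, Mir31 lost its call in 1 of 14 alternatives, median centring (adjusted p = 0.0607), Mir3097 in 2, Mir674 in 4, Mir6920 in 5, and Mir466d, Mir684-2 and Mir6240 in 8 each; no direction of these 7 reversed, and the cause was not tested. The loci called higher were 2 with median centring, 10 with the replicate block, 11 with double-named clusters added (271 loci) and 2 at a level minimum of 7 (72 loci); a minimum of 5 gave 248 loci. The loci called lower were 0 with cyclic loess and with quantile normalization, 5 with an intensity trend and robust variances, and 6 without dim genes, where fewer genes were tested. The double-named and chromosome alternatives were added after seeing the data. Hosts called higher were 3 with median centring. Of the microRNA processing and action genes, 2 were called higher with cyclic loess and with quantile normalization, and 9 lower without dim genes.

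Leaving out 1 array gave 2 to 30 loci called higher, 0 to 2 lower, a median change of 0.08 to 0.20, 3 to 5 hosts higher and 2 to 3 lower, 2 to 14 processing and action genes lower and 0 higher, and 1597 to 4702 genes of all kinds changed. By list, calls ranged from 1 to 6 (nuclear processing), 0 to 4 (export and Dicer), 1 to 2 (silencing complex) and 0 to 2 (tailing and decay). The share of changed genes that were higher was 35.8%, and 30.8% to 43.2% without 1 array.

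Small changes that were not called turned sign. These were Mir3473a with median centring (-0.0426) and without degarelix replicate 3 (-0.0349) or untreated replicate 3 (-0.0332), with -0.0349 to 0.0324 over all single omissions, and Mir3470b with the mean of clusters (-0.0155). Mir24-2 turned with median centring (-0.0037) and without degarelix replicate 1 (-0.0183), untreated replicate 2 (-0.0556) or untreated replicate 3 (-0.0175). Ctdsp1 turned with cyclic loess (0.0465), with quantile normalization (0.0605) and without degarelix replicate 2 (0.00695), with a lowest value of -0.0794 over single omissions. Mir7659 turned without degarelix or untreated replicate 3 (0.0405 and 0.0173; -0.14 to 0.0405 over single omissions). Mir26b (-0.066 to 0.0217) and Mir150 (-0.0985 to 0.0296) turned without degarelix replicate 3, and Mir3074-1 (-0.00675 to 0.117) without untreated replicate 2. Over single omissions Mir24-2 reached 0.199 and Mir3470b 0.0194 to 0.224.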
